A study of Bos taurus with 18 samples.

Results

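The comparison concerns the membrane granulosa of the bovine preovulatory follicle, the granulosa cells that stay attached to the follicle wall when the fluid is drawn off, before and after the LH surge. It rests on the 6 of the study's 18 arrays whose labels name membrane-associated granulosa. The 3 arrays before LH came from cows D, F and G. The 3 arrays after LH came from cows A, B and C. GnRH had been given to induce the surge. The labels count the 22 h to collection from GnRH in the design text and from the surge itself in the growth protocol, and which of these holds was not settled. Each cow gave 1 dominant follicle, so the replicates are separate animals and the comparison is unpaired. Breed, age and any hormone treatment other than GnRH were not given in the sources used here, and the animals before LH carry no time label. From each follicle the study also put aspirated (antral) granulosa and theca on arrays, and these enter below as a comparison. All 24016 probe sets other than controls were tested, and they stand for 9155 named genes.

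Luteinizing hormone from the pituitary acts on the granulosa and theca of the ripe follicle through a receptor coupled to cAMP. The signal passes through EGF-like growth factors and the ERK kinases, and it ends the growth programme of the granulosa. Over the following hours the cells stop dividing, stop making oestradiol, secrete prostaglandins and proteases, and begin to turn into luteal cells that make progesterone.

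Values are log2 signals, so that 1 unit is a 2-fold change. Where several probe sets carry 1 gene, the one with the highest mean over all 18 arrays stands for it. Changes are given on the log2 scale ± standard error, with n = 3 cows per group, and adjusted p-values come from limma, corrected by Benjamini-Hochberg across all 24016 probe sets. A gene is called where its adjusted p is below 0.05. Arrays before LH are always given in the order of cows D, F and G, and arrays after LH in the order of cows A, B and C. The files hold no detection calls. Signals below 4.62 are treated as dim. On their means over the arrays, 8005 probe sets fall under that value. Where every array of a group is dim, a change is given as at least the distance from that limit to the mean of the other group.

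The array of cow C stood apart among those after LH. Correlations between arrays were 0.982 to 0.987 before LH and 0.970 to 0.990 after it. On 120 genes, or 1.31%, cow C lay 2 or more from both cow A and cow B, higher on 107 and lower on 13, while the same count was 6 for cow A and 5 for cow B. On 63 of these genes cow C lay on the side of the mean before LH. XCL1, a chemokine, read 4.75, 9.19 and 5.28 before LH and 6.14, 4.85 and 14.17 after it. AREG, an EGF-like ligand that relays the LH signal, read 3.58, 3.48 and 3.57 before LH and 3.67, 3.42 and 9.46 after it. It was thus dim on every array but that of cow C. CYP11A1, the enzyme that makes pregnenolone from cholesterol, read 13.70, 12.81 and 13.23 before LH and 8.64, 8.04 and 13.10 after it. Its change of -3.32 ± 1.23 was not called (adjusted p = 0.0686). Without cow C it was -4.91 (adjusted p = 6.05e-05). At the same size it was also called by limma with the cow as a random block (adjusted p = 0.0380). With the replicate block limma called it too (adjusted p = 0.0170), though the replicate numbers do not pair the cows. Over all alternatives its adjusted p was 6.05e-05 to 0.285. Of the 120 genes 18 were called, 37 lay apart to the same side in the antral granulosa of cow C and 36 in its theca. Before LH, cow F was the most distant of the 3 cows on 63 of the 89 genes with an SD over 1. Its signals were low for SCG2 (3.87 against 8.92 and 7.23), STAR (7.81 against 11.58 and 9.66) and CYP17A1 (4.90 against 10.42 and 8.84).

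**Figure D1:**
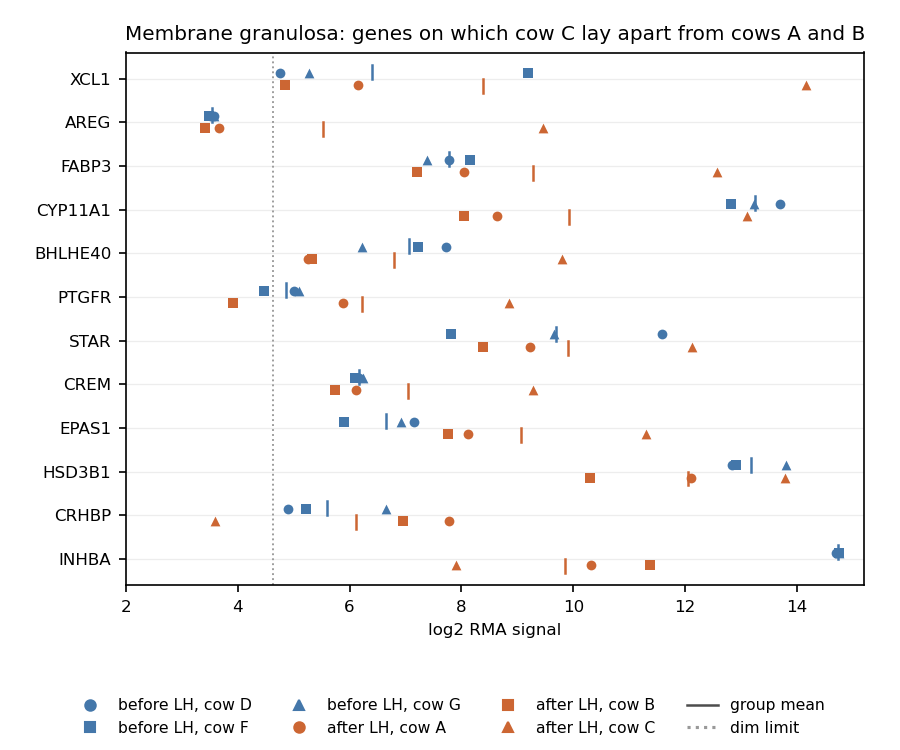
Log2 RMA signal (x axis) of 12 genes in membrane granulosa, chosen after their values were seen, with 1 point per cow, before LH in blue and after LH in orange; short vertical lines are group means and the dotted line is the dim limit of 4.62. The array of cow C (orange triangle) lies to the right of cows A and B for XCL1, AREG and CYP11A1 among others, and to the left for CRHBP (3.60 in cow C) and INHBA (7.89 in cow C).

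The labelled cell type was checked against its markers. The summed signal of 14 granulosa markers was 133456 to 144656 before LH and 41579.8 to 63052 after it. Of these markers 8 were called lower, CYP19A1, INHBA and HSD17B1 among them, and 1 higher. FOXL2 and IHH were dim on all 3 arrays after LH, while INHA was bright on all 6 (14.15 to 14.69). The summed signal of 9 theca markers was 3251.99 to 22933.4 before LH and 6387.35 to 15372.6 after it, and PTCH1 alone was dim on every array. RNA of these genes was thus present in both groups. The list holds LHCGR and STAR, which are treated below as genes of the granulosa itself, and COL1A1, which is also a fibroblast marker. It also holds CYP17A1, which read 10.42, 4.90 and 8.84 before LH. The sum was not divided among these genes, and whether theca RNA was carried over was not tested. Sums for 7 smooth muscle markers also overlapped (753.459 to 1707.62 and 656.945 to 2319.67). Markers of red cells and of the oocyte were near the dim limit, with HBA, ALAS2 and SLC4A1, and BMP15, ZP2 and ZP4, below it on all 6 arrays.

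After LH, 1200 of the 9155 genes were called higher (13.1%) and 1185 lower (12.9%), or 26.1% in either direction. Over probe sets the share in either direction was 21.0%. The counts given for each list below are to be set against the 13.1% and 12.9% of all genes. In 38.6% of genes the 3 values before LH and the 3 after it were fully separate. The median change over all genes was -0.03. Rises were larger at the extreme: 105 genes rose by 3 or more and 57 fell by as much, and 24 rose by 5 or more and 6 fell by as much. Of the genes called higher, 87 were dim on every array before LH. Of those called lower, 79 were dim on every array after LH. Without cow A the counts of genes were 816 higher and 847 lower, and without cow C 1311 and 1300. The arrays hold RNA of many cells, so fewer cells of a type and less RNA per cell cannot be told apart.

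**Figure D2:**
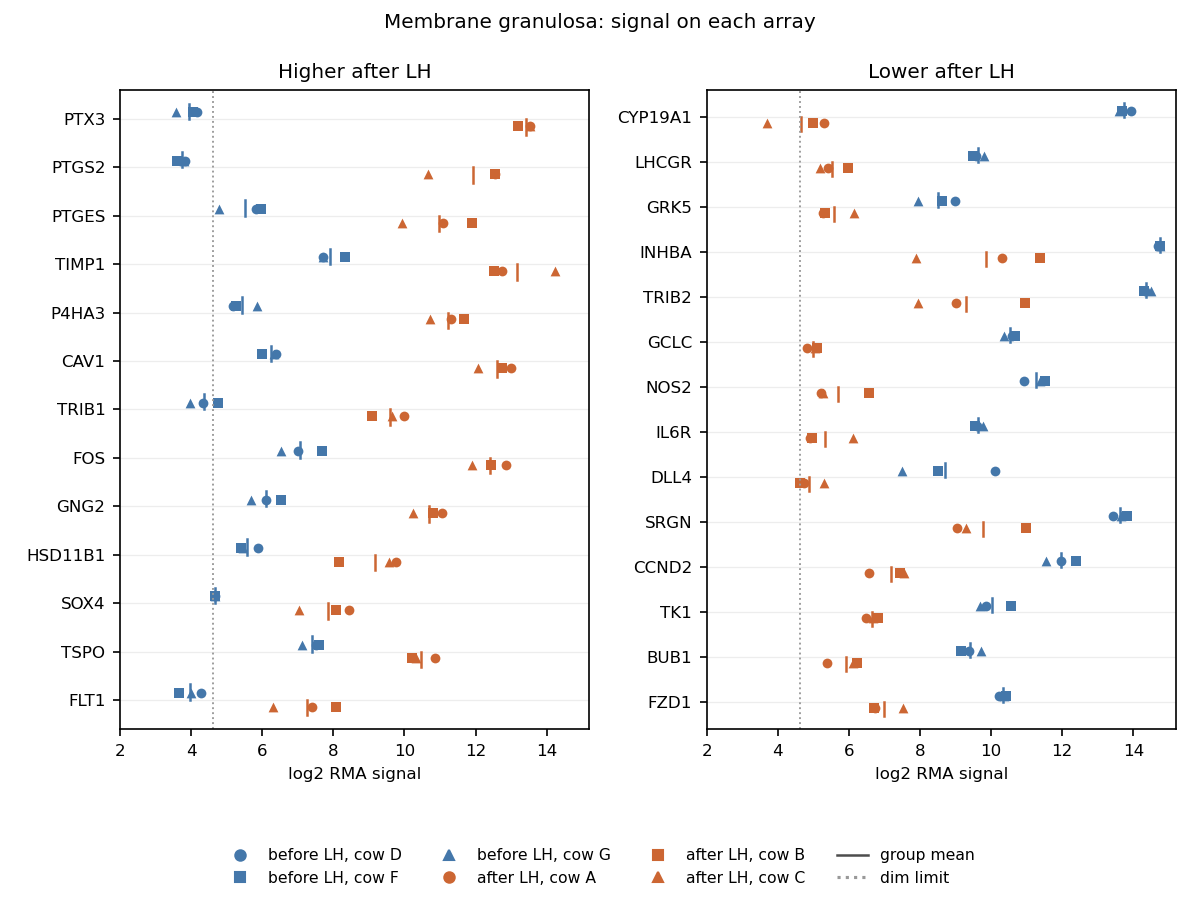
Log2 RMA signal (x axis) of genes that rose (left) and of genes that fell (right) in membrane granulosa, with 1 point per cow, before LH in blue and after LH in orange; short vertical lines are group means and the dotted line is the dim limit of 4.62. For none of the genes shown do the points before and after LH overlap.

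Among the receptors and the cAMP pathway, the largest changes were losses of receptor and of its desensitising kinase. LHCGR, the LH receptor, read 9.56, 9.50 and 9.81 before LH and 5.42, 5.97 and 5.18 after it. GRK5, a kinase that desensitises such receptors, read 8.98, 8.62 and 7.95 before LH and 5.28, 5.32 and 6.15 after it, and fell by 2.93 ± 0.35 (adjusted p = 2.03e-05). FSHR, the FSH receptor, fell by 1.97 ± 0.43 (adjusted p = 0.00337). The subunits of protein kinase A moved in both directions. The catalytic subunits PRKACB (1.79 ± 0.36, a call that ended with only the 6 arrays compared) and PRKACA (0.74 ± 0.11) rose, while the regulatory subunit PRKAR2A fell by 1.59 ± 0.21, from 10.54, 10.46 and 10.38 to 8.45, 8.70 and 9.46. GNAI1, a G protein subunit that inhibits cAMP synthesis, rose by 1.51 ± 0.23. In all, 5 of 25 measured members of the list rose (20.0%) and 4 fell (16.0%), against 13.1% and 12.9% of all genes. The other 16 were not called. The 5 rises were 3 without cow A, D or G.

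In the EGF and ERK pathway the called genes were both activators and inhibitors of the signal. DUSP1, a phosphatase of the MAP kinases, read 8.54, 8.27 and 7.96 before LH and 11.27, 10.10 and 11.70 after it, a rise of 2.77 ± 0.39 (adjusted p = 8.78e-05). SPRY2, a feedback inhibitor of receptor tyrosine kinase signalling, rose by 2.04 ± 0.31, and MAP2K1, the kinase that activates ERK, by 1.31 ± 0.18. EGFR, the receptor itself, read 4.95, 5.60 and 5.42 before LH and was dim in all 3 cows after it, a fall of at least 0.70 (adjusted p = 0.000838). Of 21 measured members 5 rose (23.8%) and 2 fell (9.52%), against 13.1% and 12.9% of all genes. The 5 rises were 3 without cow C or G, and the 2 falls were 1 without cow A, B, F or G.

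Transcription factors of the ovulatory response rose: 11 of 27 measured (40.7%, against 13.1% of all genes) and none fell, with a median change of 0.60. The list had 1 fall when cow D was left out. FOS, an AP-1 subunit induced within minutes by many hormones, read 7.003, 7.67 and 6.53 before LH and 12.85, 12.44 and 11.91 after it, a rise of 5.33 ± 0.44 (adjusted p = 5.9e-07). CEBPD (2.71 ± 0.49), JUNB (2.18 ± 0.37), ETS2 (1.78 ± 0.24) and JUN (1.34 ± 0.33) rose as well. KLF4 was dim before LH (4.09, 3.88 and 4.14) and read 5.79, 5.71 and 6.14 after it, a rise of at least 1.26 (adjusted p = 0.00782). ATF3, a stress-responsive factor, rose by 2.83 ± 0.69, a call that ended without cow G.

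Factors that act in the growing granulosa cell moved both ways, with 6 of 24 higher and 6 lower. SOX4 read 4.67 in each of the 3 cows before LH and 8.44, 8.07 and 7.04 after it, a rise of 3.18 ± 0.34 (adjusted p = 6.16e-06). NR2F1, an orphan nuclear receptor, rose by 1.88 ± 0.26. ID3, an inhibitor of helix-loop-helix factors induced by BMP signals, fell by 2.15 ± 0.22, from 9.62, 9.81 and 8.99 to 7.15, 7.52 and 7.30. ESR2, the oestrogen receptor of granulosa, fell by 1.22 ± 0.21, and NR5A1, a regulator of steroidogenic genes, by 0.83 ± 0.19. The 6 rises were 3 without cow A, B, D or G.

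PTGS2 and PTGES, which act in turn between arachidonic acid and prostaglandin E2, rose. PTGS2, the inducible cyclooxygenase, was dim before LH (3.83, 3.61 and 3.79) and read 12.54, 12.56 and 10.66 after it. PTGES, the synthase that turns its product into prostaglandin E2, read 5.82, 5.96 and 4.78 before LH and 11.08, 11.89 and 9.94 after it, and rose by 5.45 ± 0.52 (adjusted p = 2.26e-06). For both, cow C had the smallest of the 3 levels after LH. ANXA1, a lipid-binding inhibitor of phospholipase A2, rose by 2.53 ± 0.42 and ANXA2 by 2.30 ± 0.30. PLA2G1B, a phospholipase A2, fell by 2.12 ± 0.54, a call that ended without cow D. Of 23 measured genes of the list 5 rose (21.7%) and 2 fell (8.7%), against 13.1% and 12.9% of all genes. The 2 falls were 0 without cow D and 1 without cow A, B or G.

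Of 19 hyaluronan genes 2 were higher and 2 lower (10.5% each), below the shares of all genes. PTX3, which crosslinks the hyaluronan mesh, was dim before LH (4.17, 4.06 and 3.59) and read 13.52, 13.20 and 13.53 after it. HAS2, the synthase that makes hyaluronan, read 7.87, 7.88 and 7.80 before LH and 8.10, 8.05 and 7.35 after it, and its change of -0.02 ± 0.19 was not called. Another probe set of HAS2 rose by 1.41 (adjusted p = 0.000714), so its probe sets disagree. TNFAIP6, which links hyaluronan to serum proteins, read 13.04, 11.42 and 13.66 before LH and 14.52, 14.46 and 14.30 after it, a change of 1.72 ± 0.61 that was not called (adjusted p = 0.0583). This call depended on the fit. TNFAIP6 was called by limma with the cow as a random block, without the 8005 dimmest probe sets, with 1 probe set per gene and without cow G. With the replicate block limma called it too (adjusted p = 0.0291), though the replicate numbers do not pair the cows. Over all alternatives its adjusted p by limma was 0.0173 to 0.188. Without cow F the change was 1.08. Near the top of the scale such a difference can be understated. VCAN, a proteoglycan that binds hyaluronan, fell by 2.00 ± 0.48, and HMMR, a hyaluronan-binding protein of the spindle, by 3.00 ± 0.27. The 2 rises were 4 without cow C.

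In steroid synthesis CYP19A1 and HSD17B1, enzymes of oestradiol, fell, and genes of other steps changed in both directions. CYP19A1, the aromatase, read 13.92, 13.69 and 13.59 before LH and 5.29, 4.99 and 3.70 after it. HSD17B1, which reduces oestrone to oestradiol, read 9.63, 10.61 and 9.82 before LH and 5.48, 6.79 and 5.65 after it, and fell by 4.05 ± 0.35 (adjusted p = 9.46e-07). HSD11B1, which regenerates active glucocorticoid from its inert form, went the other way. It read 5.89, 5.39 and 5.46 before LH and 9.76, 8.16 and 9.57 after it, a rise of 3.58 ± 0.47 (adjusted p = 4.81e-05). TSPO, a cholesterol-binding protein of the outer mitochondrial membrane, read 7.53, 7.60 and 7.11 before LH and 10.86, 10.22 and 10.31 after it, a rise of 3.05 ± 0.26 (adjusted p = 7.92e-07). SOAT1, which esterifies cholesterol for storage, fell by 1.39 ± 0.20. CYP17A1, 1 of the theca markers, read 10.42, 4.90 and 8.84 before LH and fell by 3.38 (adjusted p = 0.0157 by limma). That call ended with only the 6 arrays compared (adjusted p = 0.133 by limma) and without cow A, B, C, D or G. STAR, which brings cholesterol into the mitochondrion, read 11.58, 7.81 and 9.66 before LH and 9.23, 8.38 and 12.12 after it, and the groups overlapped. Altogether 3 of 23 measured genes rose (13.0%, against 13.1% of all genes) and 6 fell (26.1%, against 12.9%). The 3 rises were 5 without cow C.

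Lipid genes changed in both directions. ELOVL6, an elongase of fatty acid synthesis, fell by 2.72 ± 0.48, from 8.16, 7.90 and 8.11 to 4.49, 4.93 and 6.58, and SCD, the desaturase, by 1.45 ± 0.39, a call that ended without cow A or G. PLIN2, the coat protein of lipid droplets, rose by 1.93 ± 0.41, and CD36, a fatty acid and lipoprotein receptor, by 1.93 ± 0.43. For fatty acid synthesis and storage 5 of 29 genes rose and 8 fell, but the falls were 3 without cow A and 5 without cow G, and the rises 3 without cow F. For cholesterol synthesis and uptake 2 of 28 rose and 6 fell. This count depended on the cow: the falls were 14 without cow C and 3 without cow A or G, and the 2 rises were 1 without cow A, B, D or G. HMGCS1, an early enzyme of cholesterol synthesis, shows the pattern, with 12.83, 13.50 and 13.38 before LH and 11.35, 10.44 and 13.60 after it (-1.44 ± 0.84, not called).

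**Figure D3:**
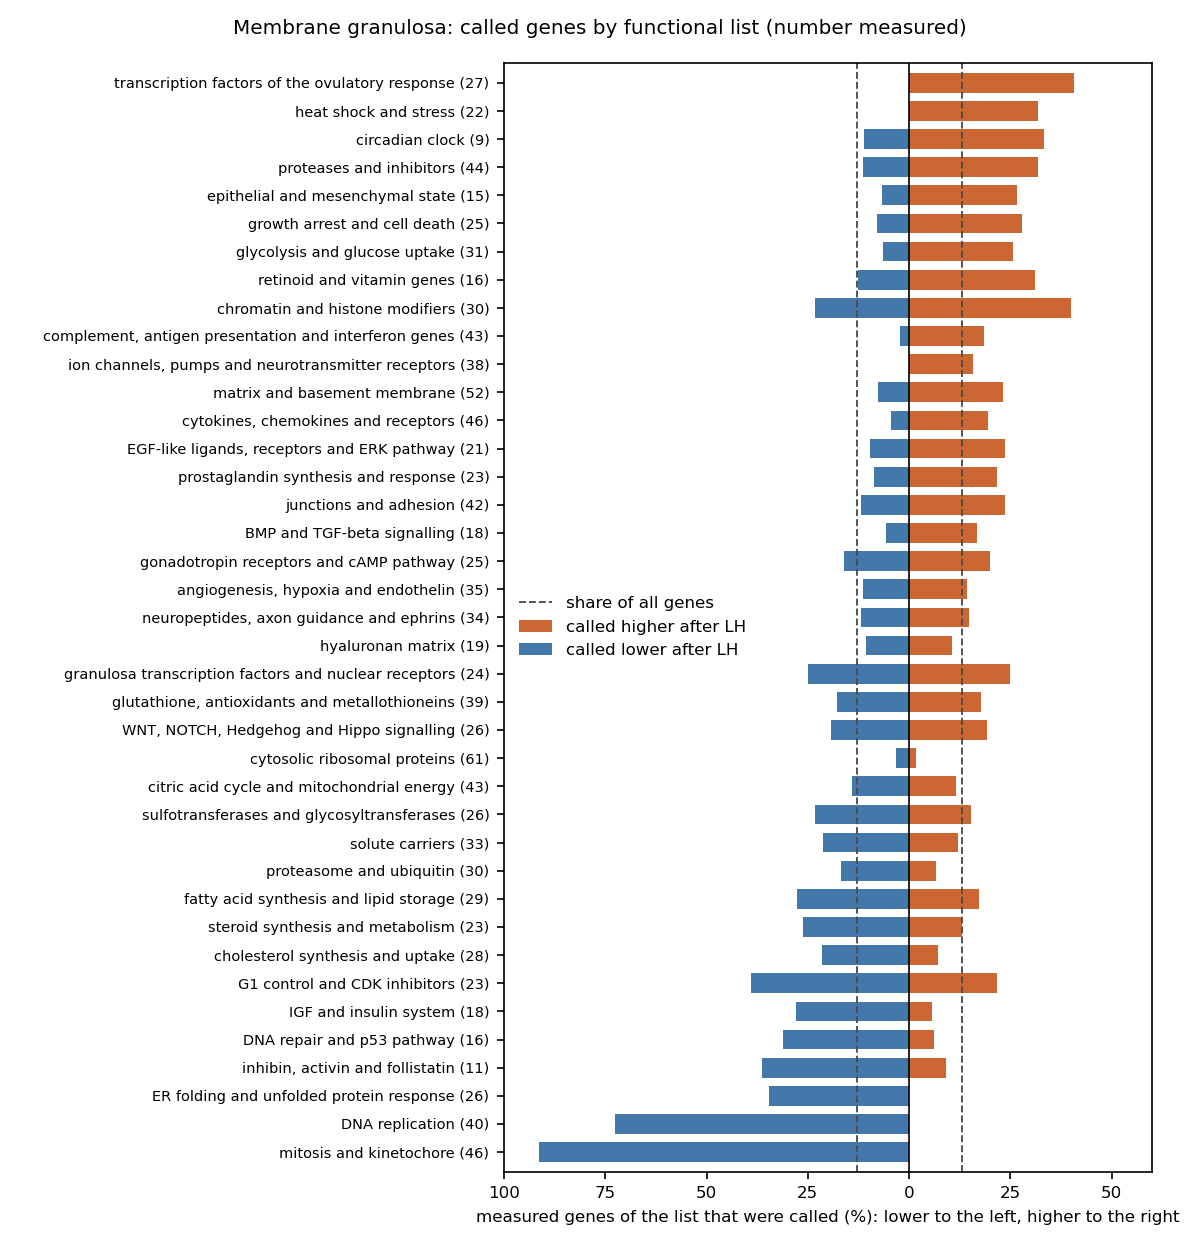
Share of the measured genes of each functional list reported (number measured in parentheses) called lower (blue, to the left) or higher (orange, to the right) after LH in membrane granulosa; dashed lines are the shares of all genes, 12.9% lower and 13.1% higher. The bars to the left for mitosis (91.3%) and DNA replication (72.5%) pass the dashed line by the widest margin, and ribosomal proteins (3.28% lower, 1.64% higher) lie inside both lines.

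In the inhibin and activin system 4 of 11 genes fell (36.4%), 1 rose and 6 were not called. INHBA, the subunit of activin A and inhibin A, read 14.70, 14.76 and 14.76 before LH and 10.31, 11.37 and 7.89 after it, while INHA, its partner in inhibin, was not called (-0.34 ± 0.13). Since INHBA lay close to the brightest value of any array (14.9) before LH, its change can be understated. AMH, anti-Mullerian hormone, fell by 2.09 ± 0.47, from 9.59, 9.72 and 9.48 to 7.70, 8.20 and 6.60. SMAD2, which carries the activin signal, fell by 1.55 ± 0.16. Without cow A, F or G the 1 rise was lost, and without cow B there were 2. TGFB2, a TGF-beta ligand, read 4.44, 4.79 and 4.48 before LH and 11.26, 11.73 and 9.15 after it, and TGIF1, a repressor of this pathway, rose by 2.26 ± 0.51. In all, 3 of 18 genes of BMP and TGF-beta signalling rose and 1 fell, and the fall was 2 without cow C, D, F or G.

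In the IGF and insulin system 5 of 18 genes fell (27.8%, against 12.9% of all genes). IGFBP4, a binding protein that holds IGF back from its receptor, read 10.18, 9.51 and 10.25 before LH and 6.96, 7.59 and 7.99 after it, and fell by 2.47 ± 0.38 (adjusted p = 0.000183). PAPPA, the protease that cleaves IGFBP4, was dim in all 3 cows after LH and fell by at least 0.55 (adjusted p = 0.000207). The binding protein IGFBP7 fell by 1.12 ± 0.16, and the insulin receptor INSR by 2.24 ± 0.51, a call that ended without cow A. IGF2 was the 1 gene that rose (2.55 ± 0.54), and there were 2 without cow C.

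WNT, NOTCH and Hippo genes changed in both directions. DLL4, a NOTCH ligand, read 10.11, 8.51 and 7.48 before LH and 4.75, 4.61 and 5.29 after it, and fell by 3.82 ± 0.61 (adjusted p = 0.000262). FZD1, a WNT receptor, read 10.23, 10.41 and 10.35 before LH and 6.73, 6.71 and 7.51 after it, and fell by 3.34 ± 0.25 (adjusted p = 2.32e-07). The secreted proteins DKK3 and CCN2 rose. DKK3, of the family of WNT antagonists, read 6.37, 6.78 and 6.44 before LH and 13.22, 11.03 and 10.34 after it, a rise of 4.998 ± 0.65 (adjusted p = 4.38e-05), and CCN2, a matricellular target of the Hippo pathway, rose by 2.38 ± 0.55. DKK1, dim before LH, rose by at least 1.04. In total 5 of 26 rose and 5 fell (19.2% each, against 13.1% and 12.9% of all genes). There were 3 rises without cow A and 3 falls without cow B or G.

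Genes of cell division fell together. Of 46 measured genes of mitosis and the kinetochore 42 fell (91.3%, against 12.9% of all genes) and none rose, with a median change of -2.40. Of 40 genes of DNA replication 29 fell (72.5%) and none rose, with a median of -1.11. NDC80, which ties the kinetochore to microtubules, read 8.28, 8.60 and 8.70 before LH and 4.82, 5.17 and 5.03 after it, and fell by 3.52 ± 0.26 (adjusted p = 1.73e-07). BUB1, a kinase of the spindle checkpoint, read 9.37, 9.16 and 9.73 before LH and 5.39, 6.24 and 6.12 after it, and fell by 3.50 ± 0.29 (adjusted p = 4.84e-07). BIRC5 (-3.35 ± 0.22), ASPM (-3.36 ± 0.32), the cyclins CCNA2 (-3.31 ± 0.37) and CCNB1 (-2.91 ± 0.34) and their kinase CDK1 (-2.67 ± 0.31) fell with them. On the side of replication, TK1, the thymidine kinase of S phase, read 9.85, 10.56 and 9.70 before LH and 6.47, 6.83 and 6.68 after it, and fell by 3.38 ± 0.20 (adjusted p = 2.29e-08). PCLAF, a PCNA-binding protein, fell by 3.52 ± 0.49 and PCNA itself, the sliding clamp, by 1.43 ± 0.21. MCM6, a helicase subunit, was lower in all 3 cows after LH (-0.46 ± 0.17) but was not called (adjusted p = 0.0662).

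Among regulators of the G1 phase 9 of 23 fell (39.1%) and 5 rose (21.7%), against 12.9% and 13.1% of all genes. CCND2, the D cyclin of granulosa, read 11.98, 12.38 and 11.53 before LH and 6.57, 7.44 and 7.56 after it. CCNE2, a cyclin of the entry into S phase, fell by 2.56 ± 0.33. The inhibitor CDKN1C, also called p57, read 7.63, 5.86 and 6.03 before LH and 10.18, 9.54 and 12.54 after it, a rise of 4.25 ± 0.87 (adjusted p = 0.00223). Other probe sets of CDKN1C read 0.29 and 0.73 and were not called. The inhibitor CDKN1A, or p21, rose by 2.21 ± 0.57, a call that ended without cow G. In the list of DNA repair 5 of 16 genes fell (31.2%), among them FANCI (-2.59 ± 0.28) and the checkpoint kinase CHEK1 (-2.11 ± 0.25). TP53INP1, a target of p53, rose by 1.70 ± 0.27.

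The fall of division genes was larger in membrane granulosa than in theca. The difference in LH change between the compartments was called for 40 of the 46 genes of mitosis and 23 of the 40 of replication, against 11.6% of all genes. In theca the medians were -0.40 and -0.21. For BUB1 the change was -3.50 in membrane granulosa and -0.60 in theca, a difference of 2.90 ± 0.28 (adjusted p = 0.000114). For TK1 the difference was 2.82 ± 0.27 (adjusted p = 0.000103). Leaving out any 1 cow left 34 to 39 called genes of mitosis, but those of replication were 9 without cow A, B or F and 15 without cow G. In antral granulosa the medians were -2.84 and -1.27.

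**Figure D4:**
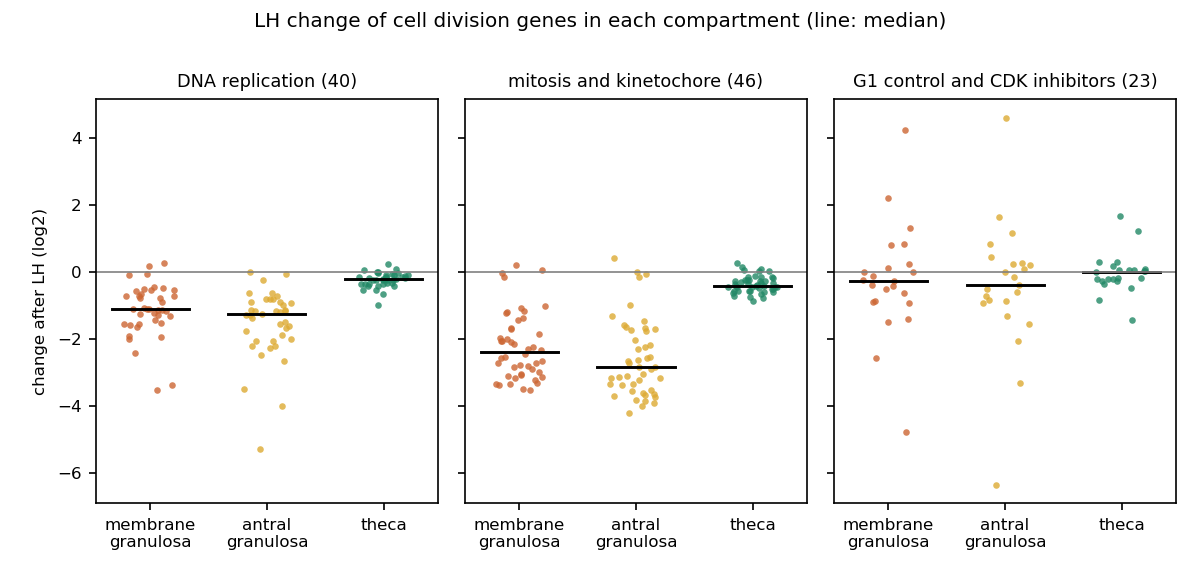
Change after LH (log2, y axis) of each measured gene of DNA replication (40), of mitosis and kinetochore (46) and of G1 control and CDK inhibitors (23) in membrane granulosa, antral granulosa and theca; each point is 1 gene, points are spread sideways at random, and the black line is the median. In both granulosa compartments the replication and mitosis genes lie mostly below 0, and in theca they lie closer to it (medians -0.21 and -0.40).

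Of 25 genes of growth arrest and cell death 7 were higher (28.0%) and 2 lower (8.0%), against 13.1% and 12.9% of all genes. The 2 measured Tribbles pseudokinases moved apart. TRIB1 read 4.34, 4.77 and 3.98 before LH and 9.999, 9.09 and 9.66 after it, a rise of 5.22 ± 0.47 (adjusted p = 1.21e-06). TRIB2 read 14.31, 14.29 and 14.49 before LH and 9.02, 10.96 and 7.93 after it, and fell by 5.06 ± 0.68. Another, dimmer probe set of TRIB1 changed by 1.02 and was not called (adjusted p = 0.0520). The death receptor TNFRSF21 rose by 2.37 ± 0.40, and the survival factors MCL1 and BCL2L1 rose by 1.26 ± 0.15 and 0.69 ± 0.18.

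Chromatin genes changed in both directions: 12 of 30 rose (40.0%) and 7 fell (23.3%), against 13.1% and 12.9% of all genes. HMGA1, a chromatin architectural protein, read 5.51, 5.34 and 5.62 before LH and 8.25, 8.01 and 6.67 after it, a rise of 2.15 ± 0.31. HDAC7, a histone deacetylase, rose by 2.01 ± 0.24 and SETD7, a lysine methyltransferase, by 1.49 ± 0.16. DNMT3A, a de novo DNA methyltransferase, rose by 1.72 ± 0.29, while its other probe sets were not called (1.25 and -0.13). Chromatin proteins tied to replication fell, among them HMGB2 (-2.02 ± 0.23), the histone chaperone ASF1B (-1.83 ± 0.27) and EZH2 (-1.40 ± 0.29), the methyltransferase of the Polycomb complex.

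Among single genes of caveolae and of the actin skeleton, CAV1, the coat protein of caveolae, read 6.40, 5.99 and 6.32 before LH and 13.00, 12.75 and 12.07 after it. Its partners CAV2 (2.17 ± 0.22) and CAVIN1 (1.53 ± 0.38) rose too. VCL, or vinculin, of focal adhesions read 9.34, 9.48 and 9.79 before LH and 11.58, 11.89 and 11.58 after it, and TPM2, a tropomyosin, rose by 2.04 ± 0.40. The troponins TNNI3 (-4.80 ± 0.25) and TNNT1 (-2.22 ± 0.32) fell.

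Genes of cell junctions moved in both directions, with 10 of 42 higher (23.8%) and 5 lower (11.9%), against 13.1% and 12.9% of all genes. CLDN11, a claudin of tight junctions, read 5.71, 5.31 and 6.45 before LH and 11.68, 12.67 and 10.86 after it. CADM1, an adhesion molecule, read 6.57, 6.05 and 5.79 before LH and 9.65, 9.31 and 9.53 after it, a rise of 3.36 ± 0.31 (adjusted p = 1.56e-06). DSC2, a desmosomal cadherin, read 4.16, 4.97 and 4.20 before LH and 7.38, 7.36 and 7.99 after it, a rise of 3.14 ± 0.33 (adjusted p = 4.64e-06). Against these, the tight junction genes CGN (-2.57 ± 0.25) and CLDN7 (-1.37 ± 0.26) and the adhesion molecule MCAM (-2.94 ± 0.37) fell. GJA1, or connexin 43, which couples granulosa cells by gap junctions, read 14.65, 14.28 and 14.43 before LH and 13.12, 12.99 and 13.29 after it, and fell by 1.32 ± 0.15 (adjusted p = 1.26e-05). The 10 rises were 6 without cow A or G.

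Matrix genes rose in 12 of 52 cases (23.1%) and fell in 4 (7.69%), against 13.1% and 12.9% of all genes, with a median of 0.61. P4HA3, a subunit of prolyl hydroxylase, the enzyme that stabilises collagen, read 5.17, 5.28 and 5.85 before LH and 11.30, 11.69 and 10.72 after it, a rise of 5.80 ± 0.30 (adjusted p = 5.07e-09). TNC, or tenascin C, rose by 5.40 ± 0.41, from 4.53, 3.83 and 4.68 to 10.52, 9.31 and 9.41, but another of its probe sets changed by 0.02. THBS2, a thrombospondin, read 6.57, 6.46 and 6.51 before LH and 9.71, 9.48 and 10.30 after it, a rise of 3.32 ± 0.31. The basement membrane gene NID2 rose by 3.23 ± 0.64 and fibronectin, FN1, by 1.41 ± 0.30, while the basement membrane genes LAMB2 (-1.19 ± 0.19) and HSPG2 (-1.09 ± 0.23) fell. COL4A1, of the basement membrane collagen, read 12.72, 12.21 and 12.68 before LH and 12.75, 12.74 and 12.84 after it, and was not called. The summed signal of 9 fibroblast markers was 3192.06 to 10035.3 before LH and 10508.3 to 27861.7 after it, with the lowest sum in cow F, as for NID2 (7.32 against 10.27 and 9.79). Its part in the rise of matrix genes was not tested. The 4 falls were 2 without cow A or D and 7 without cow C.

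Among proteases and their inhibitors 14 of 44 rose (31.8%) and 5 fell, with a median of 0.55. TIMP1, an inhibitor of metalloproteinases, read 7.70, 8.34 and 7.70 before LH and 12.75, 12.53 and 14.24 after it, a rise of 5.26 ± 0.42 (adjusted p = 3.89e-07). The urokinase PLAU read 5.85, 5.73 and 5.51 before LH and 7.80, 8.43 and 9.35 after it, a rise of 2.83 ± 0.50. Its receptor PLAUR (2.81 ± 0.66) and the tissue activator PLAT (1.83 ± 0.27) rose as well, as did ADAMTS1 (3.09 ± 0.32), a protease that cleaves versican. SERPINA14, the uterine serpin of ruminants, was dim before LH (3.82, 3.40 and 3.58) and read 9.06, 6.99 and 7.08 after it, a rise of at least 3.08 (adjusted p = 0.00199). ADAM12, a membrane protease, fell by 3.33 ± 0.40, from 8.55, 8.64 and 7.95 to 4.41, 4.90 and 5.84. The gelatinases MMP2 (0.52 ± 0.41) and MMP9 (0.26 ± 0.22) were not called. The 5 falls were 3 without cow A or B.

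Vascular genes rose in 14.3% and fell in 11.4% of cases, near the shares of all genes (13.1% and 12.9%). FLT1, a VEGF receptor, was dim before LH (4.26, 3.66 and 4.003) and read 7.39, 8.09 and 6.30 after it, a rise of at least 2.63 (adjusted p = 3.89e-05), while its other, dim probe sets changed by 0.39 and -0.02 and were not called. ADM, the vasodilator peptide adrenomedullin, read 10.14, 10.46 and 9.82 before LH and 13.48, 13.02 and 12.41 after it, a rise of 2.83 ± 0.44. PGF, placental growth factor, a ligand of FLT1, read 7.04, 7.48 and 7.57 before LH and 5.26, 4.96 and 4.36 after it, and fell by 2.50 ± 0.31 (adjusted p = 2.85e-05). Across the list 5 of 35 rose and 4 fell, with 3 rises without cow A, D or G and 7 falls without cow C. The summed signal of 9 endothelial markers, FLT1 among them, was 218.192 to 357.023 before LH and 408.91 to 581.939 after it. The defining endothelial markers VWF, KDR and TIE1 were dim on all 6 arrays.

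Of 46 cytokine, chemokine and receptor genes 9 were higher (19.6%) and 2 lower (4.35%), and of 43 genes of complement, antigen presentation and interferon 8 were higher (18.6%) and 1 lower (2.33%), against 13.1% higher and 12.9% lower among all genes. IL18, an interleukin of the IL-1 family, read 4.18, 5.95 and 4.51 before LH and 10.21, 9.65 and 10.68 after it, a rise of 5.30 ± 0.62 (adjusted p = 1.46e-05). IL6R, the IL-6 receptor, read 9.61, 9.55 and 9.78 before LH and 4.91, 4.96 and 6.11 after it, and fell by 4.32 ± 0.32 (adjusted p = 2.02e-07). STAT3, which carries the IL-6 signal, rose by 1.51 ± 0.30, and NFKBIA, the inhibitor of NF-kB, by 2.31 ± 0.33. The complement protease C1S (2.37 ± 0.42) and the complement inhibitor CLU (2.12 ± 0.26) rose. CD14, a coreceptor for endotoxin, was dim before LH and rose by at least 2.40, while its other probe set changed by 0.73 and was not called. The summed signal of 10 leukocyte markers was 1184.88 to 1467.55 before LH and 547.449 to 908.079 after it, the opposite direction to CD14, which is part of the sum. The median change of the 10 markers was 0.13, with 1 called higher, 1 lower (CYBB) and 8 not called. The sum thus does not show a fall shared by these markers. PTPRC, or CD45, the defining marker of leukocytes, read 7.75, 7.89 and 8.03 before LH and 6.08, 6.88 and 7.29 after it (-1.14 ± 0.41, not called). The 9 rises were 5 without cow F, the 8 rises were 5 without cow B or C and 4 without cow G, and the 1 fall of the second list was 3 without cow C.

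Of 39 genes that guard against oxidants 7 were higher and 7 lower (17.9% each, against 13.1% and 12.9% of all genes). The 2 subunits of glutamate-cysteine ligase, the first enzyme of glutathione synthesis, changed in opposite directions. The catalytic subunit GCLC read 10.60, 10.66 and 10.35 before LH and 4.82, 5.11 and 5.05 after it. The modifier subunit GCLM read 7.64, 8.29 and 7.28 before LH and 9.96, 9.35 and 9.08 after it, a rise of 1.73 ± 0.29 (adjusted p = 0.000489). The metallothioneins, which bind zinc and copper, rose. MT2A read 8.47, 10.81 and 8.61 before LH and 12.94, 13.42 and 13.18 after it (3.88 ± 0.55), and MT1A rose by 3.26 ± 0.63; as near-identical genes they may share probes. CYBB, the catalytic subunit of the phagocyte oxidase, fell by 3.56 ± 0.33, from 9.78, 9.06 and 9.68 to 5.75, 5.98 and 6.12. CYBB is itself 1 of the 10 leukocyte markers and the only 1 called lower, so the fall of their sum is not separate from its own.

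In energy metabolism, single enzymes changed while most members of each pathway were not called. PFKFB3, which sets the pace of glycolysis, read 6.89, 6.62 and 6.20 before LH and 9.47, 9.18 and 8.70 after it, a rise of 2.55 ± 0.42. PDK3, a kinase that keeps pyruvate out of the citric acid cycle, rose by 2.10 ± 0.19. SUCLA2, of succinyl-CoA synthetase, rose by 2.19 ± 0.29, whereas IDH3A, of the NAD-dependent isocitrate dehydrogenase, fell by 2.67 ± 0.42, from 12.44, 12.39 and 12.99 to 9.66, 9.59 and 10.57. IDH2, the NADP-dependent mitochondrial isoenzyme, rose by 1.24 ± 0.16. For glycolysis 8 of 31 rose and 2 fell, but the rises were 3 without cow A, 4 without cow C or G and 5 without cow F, and the falls 7 without cow C. For the citric acid cycle and mitochondria 5 of 43 rose and 6 fell, and the falls were 3 without cow A, B, D or F and 10 without cow C. Of 61 cytosolic ribosomal protein genes 1 rose and 2 fell, below the shares of all genes. Those calls rested on single cows as well: the rise was lost without cow A, B, D or G, and the falls were 0 without cow A or D and 1 without cow B, F or G.

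The called protein folding genes of the ER and of the heat shock list went opposite ways. In the list of ER folding and the unfolded protein response 9 of 26 fell (34.6%, against 12.9% of all genes). None rose, and the median was -0.41. HERPUD1, which serves the degradation of misfolded proteins, read 12.76, 12.68 and 13.11 before LH and 10.46, 10.41 and 11.31 after it, and fell by 2.12 ± 0.27 (adjusted p = 3.23e-05). CHAC1, an enzyme that breaks down glutathione under ER stress, fell by 1.92 ± 0.45. The 9 falls were 4 without cow A, B or D and 5 without cow G, and 1 gene rose without cow C. Among heat shock and stress genes 7 of 22 rose (31.8%, against 13.1% of all genes) and none fell. The median change of that list was only 0.01, so it did not rise as a whole. BAG3, a cochaperone of HSP70, read 9.01, 8.91 and 8.49 before LH and 10.90, 10.78 and 10.05 after it, a rise of 1.77 ± 0.23 (adjusted p = 4.25e-05), and DNAJB5 rose by 1.97 ± 0.28. Those 7 rises were 4 without cow G, while there were 3 falls without cow C and 1 without cow G. For the proteasome 2 of 30 rose and 5 fell, with 2 falls without cow A, B, D or F and 1 rise without cow B, C or G. PSMB10, an immunoproteasome subunit, rose by 1.51 ± 0.25.

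Retinoid genes changed at several steps. RDH10, which makes retinal from retinol, read 7.18, 6.87 and 7.12 before LH and 11.39, 9.40 and 11.23 after it, a rise of 3.62 ± 0.61 (adjusted p = 0.000472). DHRS3, which carries out the reverse step, read 10.35, 11.17 and 11.28 before LH and 8.84, 8.15 and 9.75 after it, and fell by 2.02 ± 0.46. RBP4, the carrier of retinol, rose by 2.06 ± 0.31, and STRA6, its receptor, fell by 2.01 ± 0.39. In this list 5 of 16 rose (31.2%) and 2 fell (12.5%), against 13.1% and 12.9% of all genes. The rises were 3 without cow A, B or D.

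Transferases of sulfate and sugar also moved in both directions. Of 26 genes 4 were higher (15.4%) and 6 lower (23.1%), against 13.1% and 12.9% of all genes. SULT1A1, a phenol sulfotransferase, read 7.52, 7.24 and 7.01 before LH and 10.66, 9.17 and 10.91 after it, a rise of 2.99 ± 0.51. FUT8, the core fucosyltransferase, rose by 2.42 ± 0.31. CHST8, a sulfotransferase of N-glycans, read 10.66, 11.37 and 10.96 before LH and 4.25, 5.33 and 3.95 after it, and CHST11, of chondroitin, fell by 2.14 ± 0.30. Outside the list, ST3GAL4, a sialyltransferase, read 13.33, 13.54 and 13.54 before LH and 9.78, 9.63 and 9.78 after it, and fell by 3.74 ± 0.19 (adjusted p = 4.87e-09).

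Solute carriers fell in 7 of 33 cases (21.2%, against 12.9% of all genes) and rose in 4 (12.1%, against 13.1%). The zinc and iron importer SLC39A14 read 11.19, 11.49 and 11.70 before LH and 8.06, 8.57 and 9.62 after it, and fell by 2.71 ± 0.34. SLC25A20, which brings fatty acids into the mitochondrion as acylcarnitine, fell by 2.55 ± 0.25, and the amino acid transporter SLC43A2 by 2.42 ± 0.23. The copper transporter SLC31A2 rose by 2.33 ± 0.32. Among ion channels and neurotransmitter receptors 6 of 38 rose (15.8%, near the 13.1% of all genes) and none fell. Their median change was -0.04, and there was 1 fall without cow C. The glutamate receptor subunit GRIA3 was dim before LH (3.24, 3.01 and 3.51) and read 9.34, 9.70 and 9.19 after it. CACNB3, an accessory subunit of calcium channels, read 6.57, 7.18 and 7.37 before LH and 10.27, 10.45 and 8.73 after it, a rise of 2.78 ± 0.41.

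Of 34 measured genes of neuropeptides, granins and axon guidance 5 rose (14.7%) and 4 fell (11.8%), near the shares of all genes (13.1% and 12.9%). CHGB, or chromogranin B, was dim before LH (2.89, 3.06 and 2.95) and read 7.78, 7.08 and 5.11 after it, a rise of at least 2.03 (adjusted p = 0.000164). NTS, the neurotensin precursor, was dim before LH and read 11.81, 11.10 and 9.43 after it. SCG2, of the granin family, read 8.92, 3.87 and 7.23 before LH and 10.14, 11.24 and 12.53 after it, a rise of 4.62 ± 0.98 (adjusted p = 0.00287). The call of SCG2 ended with only the 6 arrays compared (adjusted p = 0.0533, limma), and over all alternatives its adjusted p was 0.00150 to 0.0533. The guidance receptors PLXNC1 (-2.55 ± 0.38) and ROBO2, dim in all 3 cows after LH and lower by at least 0.21, fell. There were 2 falls in the list without cow B. Of 9 genes of the circadian clock 3 rose (33.3%) and 1 fell (11.1%). PER2, a repressor of the clock, read 4.94, 4.45 and 4.90 before LH and 6.49, 8.04 and 6.23 after it (2.15 ± 0.43), and NFIL3 rose by 2.29 ± 0.41. The fall was lost without cow A, B, D, F or G. The short list of epithelial and mesenchymal state had 4 of 15 higher and 1 lower, the fall being lost without cow A, B, F or G. CDH1, or E-cadherin, rose there by 2.06 ± 0.46 on its brightest probe set, while another changed by 0.18 and was not called.

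Several of the largest changes lay outside these lists. GNG2, a G protein gamma subunit, read 6.10, 6.52 and 5.67 before LH and 11.05, 10.80 and 10.25 after it, a rise of 4.60 ± 0.34 (adjusted p = 2.23e-07). LGALS3, or galectin 3, rose by 5.06 ± 0.61, from 5.88, 8.29 and 5.79 to 11.89, 11.33 and 11.92. LMO7, an actin-associated protein, rose by 5.09 ± 0.28, NDRG1 by 4.94 ± 0.35 and the open reading frame C5H12orf75 by 6.25 ± 0.23. These rises had the groups well apart. RUBCNL, ARHGAP24 and PNMA2 were dim in all 3 cows before LH and rose by at least 3.98, 4.05 and 3.87. Among falls, SRGN, the proteoglycan serglycin, read 13.42, 13.83 and 13.66 before LH and 9.04, 10.98 and 9.29 after it, and fell by 3.86 ± 0.45 (adjusted p = 1.6e-05). PRR15 (-4.50 ± 0.30), OBSL1 (-4.44 ± 0.33) and PDSS1 (-3.96 ± 0.52), which makes the side chain of ubiquinone, fell by comparable amounts. PLEK (-3.89 ± 0.47), a substrate of protein kinase C, and CHN2 (-3.89 ± 0.44), a Rac regulator, fell as well.

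The study asks whether granulosa and theca respond differently to the surge, and the difference in LH change was tested within cows. Between theca and membrane granulosa it was called for 9.13% of probe sets, 1095 above 0 and 1097 below it, and for 11.6% of genes. Of the 1200 genes that rose in membrane granulosa, 445 (37.1%) had a called difference, and for 443 of these the change in theca was smaller or opposite. Of the 1185 that fell, 466 (39.3%) had one, and for 458 the change in theca was smaller or opposite. The 1064 genes with a called difference were 521 without cow A, 571 without cow B and 616 without cow G. These shares describe genes chosen for their change in membrane granulosa. FLT1 is an example, with a rise of at least 2.63 in membrane granulosa, where it was dim before LH, and a change of -0.22 in theca. The difference was called (adjusted p = 0.000891), but its size is only bounded. KCNMA1, a calcium-activated potassium channel, was dim before LH in membrane granulosa and rose by at least 1.94, with a change of -0.25 in theca. Its difference was likewise called (adjusted p = 0.000586), with no exact size. STRA6 went apart in sign, with -2.01 in membrane granulosa and 0.92 in theca (difference 2.94 ± 0.33, adjusted p = 0.000266). The difference was called, but the change in theca by itself was not. Of the genes called higher in membrane granulosa 4 were called lower in theca. Of those called lower 0 were called higher in theca. MT2A (3.88 and 4.50) and JUNB (2.18 and 2.09) changed by similar amounts, and their differences of 0.61 ± 0.34 and -0.08 ± 0.29 were not called.

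**Figure D5:**
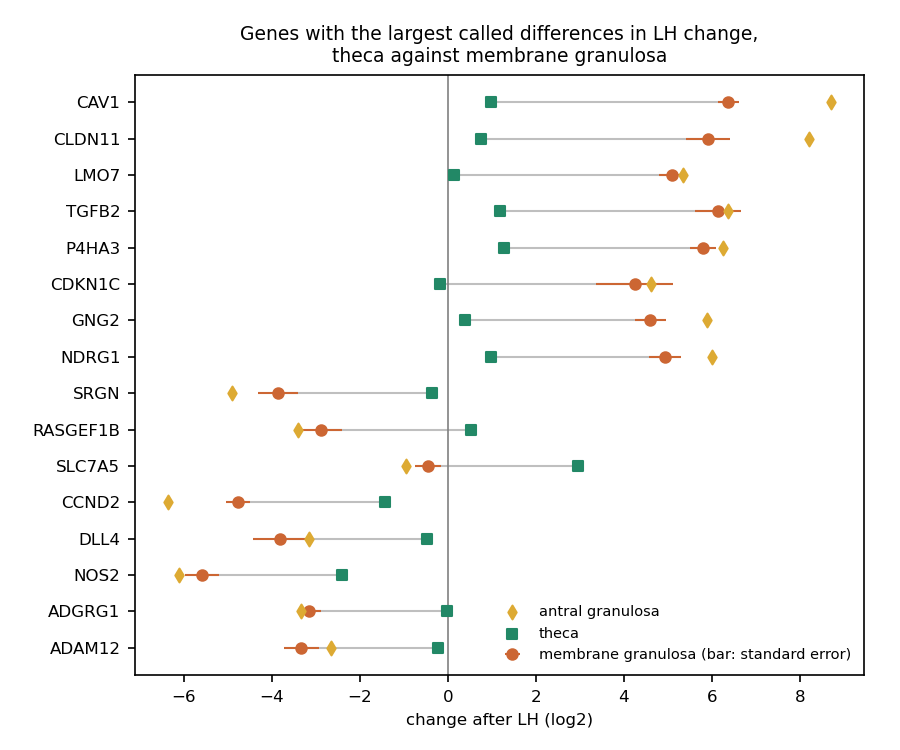
Change after LH (log2, x axis) in membrane granulosa (circle, with its standard error), antral granulosa (diamond) and theca (square) for the 8 genes with the most negative and the 8 with the most positive called difference in LH change, theca minus membrane granulosa. For CAV1 the change is 6.37 in membrane granulosa and 0.98 in theca, and for SLC7A5 it is -0.45 and 2.95.

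Between antral and membrane granulosa, the difference in LH change was called for none of the 24016 probe sets (0.0%) by limma, with 2236 at an unadjusted p under 0.05 and a smallest adjusted p of 0.0503. With limma's trend and robust options it was called for 1. Among all genes 12.6% rose and 16.1% fell in antral granulosa. The genes that rose in both, 886, were 73.8% of those that rose in membrane and 76.9% of those that rose in antral granulosa. The 933 that fell in both were 78.7% and 63.3%. Both sets of arrays came from the same cows, so these shares are a description and not independent support. For NID2 the change was 3.23 in membrane and 7.27 in antral granulosa, for FN1 1.41 and 3.76, and for C1S 2.37 and -0.12. None of these differences passed the threshold, which does not show that the compartments respond alike.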

How the data were processed

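Per the labels' protocols, Trizol with phase lock gel gave the RNA and 3' in vitro transcription the biotinylated cRNA. The authors deposited log2 signals per probe set, made with RMA in Partek 6.5 per the submitters' processing notes; the settings are not given in the sources used here. Of 24128 probe sets 112 controls were left out. Among the 24016 tested, the platform's annotation, which can be old, gives 1 symbol to 13292, several to 86 and none to 10638; the RefSeq table held the gene ID of 13263. Array medians were 5.74 to 5.86, no 2 arrays were identical, and the number of arrays limits the precision.

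The LH change came from lmFit and eBayes (limma 3.58.1, R 4.3.3), with all 18 arrays in 1 fit, 6 group means and no block, so that groups share 1 spread per probe set. Differences in LH change between compartments have the cow as a fixed block. The threshold was an adjusted p of 0.05. The fits were also run on simulated data with independent noise for each array and no cow effect. Such data cannot show how arrays that share a cow affect the calls. The same replicate number stands for another cow after LH than before it. After removing group means, same-numbered membrane arrays correlated at 0.001 to 0.012, so the numbers do not pair them. For arrays from 1 cow this correlation was -0.017 to 0.69.

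The genes and gene lists were chosen with earlier results of these data known. Named are the 30 largest rises and falls among genes called and without overlap of the groups, up to 5 called genes per list and direction, genes of follicle function, and the 8 largest differences each way between compartments; others, such as the most variable genes, are given as values. Alternatives were quantile normalization, median centring, leaving out the 8005 dimmest probe sets, each cow in turn, a fit of just the arrays compared, 1 probe set per gene, other blocks, a 2-fold minimum, and trend and robust. Leaving out a cow removes its 3 arrays. The counts of 1 gene list are not reported here. Figures used matplotlib 3.10.9.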

Additional observations from a re-analysis of the deposited data

Results flagged for a closer look

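The difference in LH change between theca and membrane granulosa was tested within cows, and the 16 genes with the largest called values are given as theca minus membrane granulosa on the log2 scale. Values below 0, with the larger rise in membrane granulosa, were those of CAV1 (-5.40), CLDN11 (-5.17), LMO7 (-4.96), TGFB2 (-4.96), P4HA3 (-4.53), CDKN1C (-4.42), GNG2 (-4.21) and NDRG1 (-3.96). Values above 0 were those of SRGN (3.50), RASGEF1B (3.41), SLC7A5 (3.40), CCND2 (3.34), DLL4 (3.34), NOS2 (3.19), ADGRG1 (3.12) and ADAM12 (3.10).

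In membrane granulosa the 3 signals before LH lay between 5.31 and 6.45 for CLDN11 and between 5.99 and 6.40 for CAV1, and both genes rose. Their changes in theca were 0.74 and 0.98. SLC7A5, an amino acid transporter, read 6.95, 6.87 and 7.48 before LH and 6.42, 6.14 and 7.38 after it in membrane granulosa, where it was not called (-0.45 ± 0.29). Without cow C it was called lower there (-0.82, adjusted p = 0.0141 by limma, and 0.0141 to 0.743 over all alternatives). Its change in theca was 2.95. ADGRG1, an adhesion receptor, read 8.79, 8.96 and 9.12 before LH and 5.47, 5.82 and 6.14 after it in membrane granulosa, with a change of -0.03 in theca. RASGEF1B, an exchange factor of small G proteins, changed by -2.89 in membrane granulosa and by 0.52 in theca. All 16 calls remained with any 1 cow left out. That of CDKN1C ended with no block (adjusted p = 0.0587 by limma, and 0.000527 to 0.0587 over all alternatives).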

How the results depend on the processing

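The counts of probe sets called for the LH change (2413 higher, 2628 lower) stayed within 1.5 times of these values with quantile normalization, median centring, without the 8005 dimmest probe sets, with trend and robust, with only the 6 arrays compared, and with the cow as a random block. The lowest of these counts, 1696 higher and 1878 lower, came with only the 6 arrays compared. That fit takes the spread from the membrane granulosa arrays alone. The counts were 1241 and 1256 with 1 probe set per gene and 1363 and 1225 with a 2-fold minimum. Leaving out 1 cow gave 1602 to 2726 higher and 1785 to 2679 lower. The replicate block, though the numbers do not pair the cows, gave 2640 and 2884.

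For the difference between antral and membrane granulosa (0 called), 1 was called above 0 with quantile normalization, without the 8005 dimmest probe sets, with 1 probe set per gene, or with trend and robust, and 3 with only the arrays compared. Leaving out 1 cow gave 0 to 6 above 0 and 0 to 18 below it, the highest without cow F and cow G.

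For the difference between theca and membrane granulosa (1095 above 0, 1097 below), 1 probe set per gene gave 571 and 613, no block 529 and 487, and the replicate block 652 and 640. Leaving out 1 cow gave 520 to 1058 above 0 and 554 to 1134 below it, with 520 and 554 without cow A, 573 and 617 without cow B, and 678 and 623 without cow G. The cause of these shifts was not tested, apart from the smaller number of tests with 1 probe set per gene.

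Of 309 called named genes 232 kept their direction and call in each of the 14 settings run, 77 lost the call in at least 1, and none was reversed. Scaling moved the median change of all probe sets from -0.05 to between -0.08 and -0.03. Signals near the dim limit give bounds and not sizes. All p-values rest on 3 cows per group.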
